A study of Rattus norvegicus with 6 samples.

Results

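Amino acid carriers of 7 solute carrier families were compared in kidneys of the Dahl salt-sensitive strain (Dahl S) and of the Lewis strain. The members were the probe sets whose single gene symbol in the platform annotation starts with Slc1a, Slc3a, Slc6a, Slc7a, Slc36a, Slc38a or Slc43a, without Slc6a6, Slc6a12 and Slc7a11. The symbol rule found 69 of the 31099 probe sets on the array. One of them belongs to Slc7a6os, a gene beside Slc7a6 that encodes no carrier, and it was kept out of the counts by family. The other 68 probe sets represent 50 carrier genes. Of these genes, 27 passed the filter on low values and were tested, through 34 probe sets, and 23 did not pass it.

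The rats were male Dahl salt-sensitive and Lewis animals, 3 of each strain. All of them ate a diet with 8% NaCl from 5 weeks of age, for 8 weeks. Whole-kidney RNA of each rat was hybridized to its own array. No animals on a low-salt diet were analysed here, so what is inherited and what is a response to salt cannot be told apart. The 2% trimmed mean of the deposited signal lay between 119 and 250 on the 6 arrays, and the arrays were quantile normalized before they were compared. The tissue label was checked against marker genes: the thick ascending limb markers, with Umod, Slc12a1 and Kcnj1 among them, had deposited signals of at least 119.7 on every array, and those of the proximal tubule at least 162.8.

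Amino acids that pass the glomerular filter are taken back almost completely by the proximal tubule. Carriers in the brush border (apical) membrane bring them into the cell, mostly with sodium or in exchange for another amino acid, and carriers in the basolateral membrane release them to the blood or take up glutamine from it. Many Slc7 proteins are light chains that reach the membrane only when bound to a heavy chain, Slc3a1 (rBAT) at the brush border or Slc3a2 (4F2hc) at the basolateral side. The families also hold carriers of other molecules, since Slc6 includes carriers of GABA, creatine and monoamines, and carriers that most cells use for their own supply.

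More carriers were lower than higher in Dahl S after quantile normalization. Of the 27 genes tested, 13 (48.1%) were lower in Dahl S and 3 (11.1%) were higher at an adjusted p under 0.05 in limma, and 11 did not pass. Over all 9535 genes tested, 7.59% were lower and 9.04% were higher, and over all 15778 probe sets tested 7.73% and 8.51%. The median log2 difference (Dahl S minus Lewis) of the 27 carriers was -0.28, against 0 for all genes, and the single differences ran from -0.81 for Slc7a5 to 1.25 for Slc7a12. Values of the 3 Dahl S arrays and the 3 Lewis arrays did not overlap in 19 of the 27 carriers (70.4%), against 35.1% of all genes. The filter required a value above the median of all values on any 3 arrays, and 25 of the 27 carriers were above it on all 6 arrays. Slc7a5 was above it on the Lewis arrays alone, so it had to differ in order to be tested, and Slc7a6 was above it on all Lewis arrays and 2 Dahl S arrays. Slc7a5 is counted among the 13 lower genes and the 19 without overlap. With a filter on the mean, where Slc7a5 was not tested, 12 of 26 carriers were lower.

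The number of carriers that were lower was 8 without Dahl S array 2 and 7 without Dahl S array 3, and 9 to 11 without any other single array. The share of all genes that were lower was 4.97% without Dahl S array 2, 4.41% without Dahl S array 3 and 4.76% to 8.30% without any other. Without any 1 Lewis array 26 carriers were tested, since Slc7a5 did not pass the filter there. In the deposited values without normalization, where all genes tested were higher in Dahl S by 0.41 at the median, 0 of 26 carriers were lower and 2 were higher by limma (0 lower and 3 higher at an unadjusted p under 0.05), with a median of 0.11, although 22 of the 26 lay below the median of all genes. In those values 3.83% of all genes were called higher and 0.227% lower, and 93.4% of all called probe sets were higher, against 52.4% after quantile normalization.

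**Figure D1:**
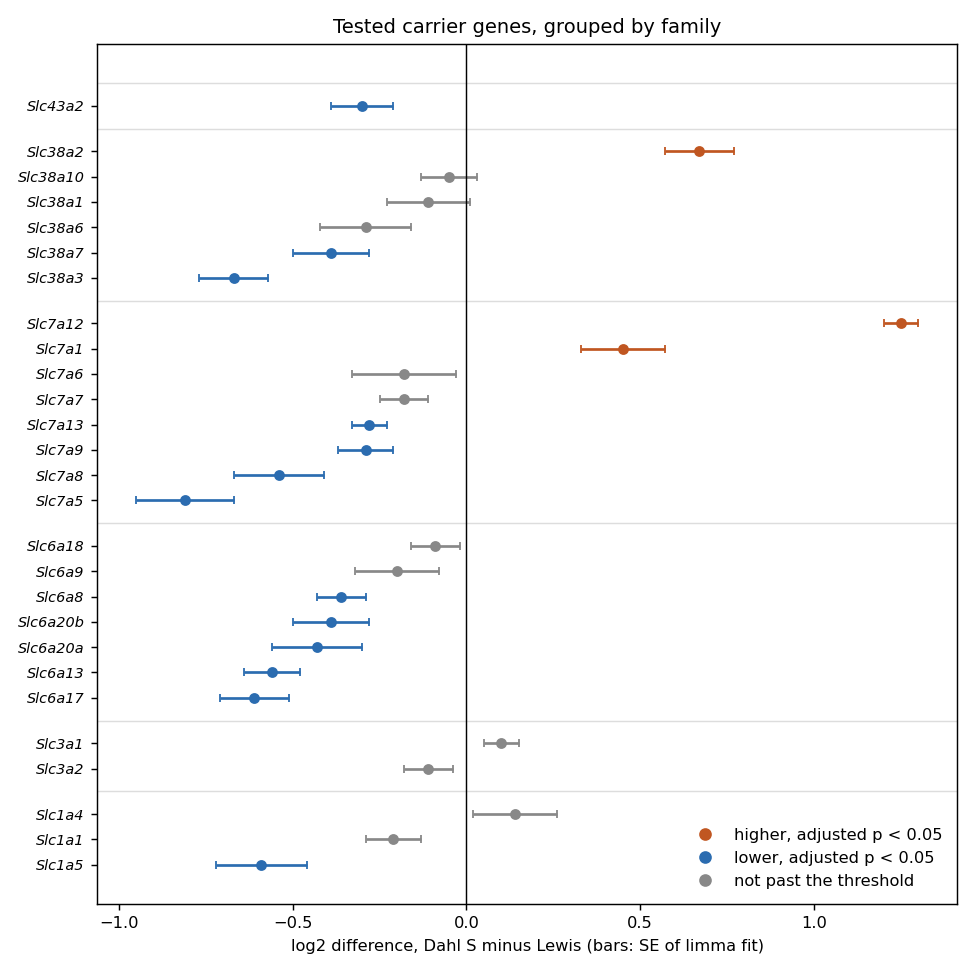
Log2 difference (Dahl S minus Lewis, x axis) of each of the 27 tested carrier genes, grouped by family, with bars for the SE of the limma fit; blue marks genes lower and orange genes higher at an adjusted p under 0.05, and grey the rest. The 3 orange points are Slc7a12, Slc38a2 and Slc7a1, and all 5 coloured points of the Slc6 family lie to the left of 0.

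The 3 carriers that rose were Slc7a12, Slc38a2 and Slc7a1. Slc38a2 is SNAT2, a sodium-dependent carrier of small neutral amino acids. Slc7a1 is CAT1, the carrier for arginine, lysine and ornithine found in most cells. Both are among the carrier genes known from cultured cells to be switched on when amino acids run short, through the transcription factor ATF4. Of others in that group, Slc7a5 (log2 difference -0.81) and Slc1a5 (-0.59) were lower in Dahl S. Slc3a2 (-0.11) and Slc1a4 (0.14) did not pass. Slc7a5 was tested through its Lewis arrays alone. ATF4 binds composite C/EBP-ATF elements. Whether ATF4 acted on any carrier in these kidneys was not tested. The promoters of the 3 genes, 250 bases before to 50 bases after the annotated start, are shown because these are the carriers that were higher in Dahl S. They come from RefSeq, GRCr8 build, of the BN/NHsdMcwi strain, so that differences of the Dahl S or Lewis genomes are not in them. Each is written 5′ to 3′ on the strand of the gene, in lower case, with the core TGATGNAA of the C/EBP-ATF element, searched on both strands, in capitals. Slc7a12 lies at chr2:88868054-88868353 (minus strand), Slc38a2 at chr7:129742570-129742869 (minus strand) and Slc7a1 at chr12:11664238-11664537 (plus strand).
Slc7a12: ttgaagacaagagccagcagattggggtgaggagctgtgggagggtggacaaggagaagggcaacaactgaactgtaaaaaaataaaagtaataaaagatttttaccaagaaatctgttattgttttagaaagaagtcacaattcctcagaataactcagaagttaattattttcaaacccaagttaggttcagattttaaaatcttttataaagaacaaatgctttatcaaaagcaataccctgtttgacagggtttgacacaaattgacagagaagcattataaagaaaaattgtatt
Slc38a2: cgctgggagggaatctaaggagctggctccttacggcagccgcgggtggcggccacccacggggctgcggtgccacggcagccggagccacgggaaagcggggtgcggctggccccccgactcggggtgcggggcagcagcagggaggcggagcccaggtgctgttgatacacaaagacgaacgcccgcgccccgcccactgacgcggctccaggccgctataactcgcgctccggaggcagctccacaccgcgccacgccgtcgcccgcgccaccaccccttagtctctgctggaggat
Slc7a1: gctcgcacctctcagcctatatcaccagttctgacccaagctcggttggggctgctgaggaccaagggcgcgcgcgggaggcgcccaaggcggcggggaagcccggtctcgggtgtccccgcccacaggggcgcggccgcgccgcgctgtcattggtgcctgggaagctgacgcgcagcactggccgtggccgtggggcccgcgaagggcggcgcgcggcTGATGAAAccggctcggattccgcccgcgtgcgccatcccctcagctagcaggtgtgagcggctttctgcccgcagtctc
The core was present at 1 place in Slc7a1, with its first base at position -30 from the annotated start, and at no place in the windows of Slc7a12 and Slc38a2. Promoters of 38 of the 50 carrier genes were in the table, and 3 of them (7.89%) held the core, against 3.82% of 27457 genes. The other carriers that held it were Slc1a4 and Slc38a1, and neither passed the threshold. A match of these letters is a description of the window and not a binding site. Sequence outside these windows was not searched, so an empty window does not mean that a gene lacks the element.

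Slc7a12, which encodes asc-2, a carrier of small neutral amino acids described in the mouse, had the largest difference of the carriers. The normalized signal, which is the quantile-normalized value on the linear scale, was 2270, 2370 and 2340 in Lewis rats 1, 2 and 3. In Dahl S rats 1, 2 and 3 it was 5560, 5540 and 5540. Values by array are given in this order throughout. All Dahl S arrays lay far above all Lewis arrays. The means were 5550 ± 10.6 in Dahl S and 2320 ± 52 in Lewis (SD, n = 3 each), a 2.38-fold difference (log2 difference 1.25, SE 0.05, limma adjusted p = 1.4e-08). The deposited signals, not normalized, were 1421.5, 2896.3 and 2135.1 in Lewis and 6013.1, 6415 and 5679.5 in Dahl S, again without overlap. By rank among the 31099 probe sets, Slc7a12 stood at places 613 to 655 in Lewis and 122 to 124 in Dahl S. Quantile normalization sets values by rank, so the small SD of the normalized signal is not the spread of the deposited signals. Scaled to a common median instead, the arrays gave a log2 difference of 1.10 (SE 0.09, limma adjusted p = 5.8e-07). Only 1 probe set measures Slc7a12, and sequence differences between the strains under its probes were not tested.

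Slc38a2 had normalized signals of 943, 1220 and 1010 in Lewis and 1890, 1640 and 1540 in Dahl S. The lowest Dahl S array was above the highest Lewis array, a 1.59-fold difference (0.67 on the log2 scale, SE 0.10, adjusted p = 6.7e-04). Its call held without any 1 array, where the difference ran from 0.59 to 0.77. Slc38a2 stands between Slc38a1 and Slc38a4 on chromosome 7, with 0 protein-coding genes between neighbours. Slc38a1 (SNAT1), a carrier of the same kind of substrates, differed by -0.11 (adjusted p = 0.59), with a log2 difference of -0.20 in its other tested probe set, and Slc38a4 was too dim to be tested.

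Slc7a1 gave 103, 144 and 123 in Lewis and 187, 162 and 170 in Dahl S. The strains did not overlap, and the difference was 1.37-fold (log2 difference 0.45, SE 0.12, adjusted p = 0.028). A second probe set gave 0.36 (adjusted p = 0.046). The call was near the threshold: it was lost without any 1 array except Lewis array 2, with differences of 0.35 to 0.49 and adjusted p values of 0.051 to 0.13.

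**Figure D2:**
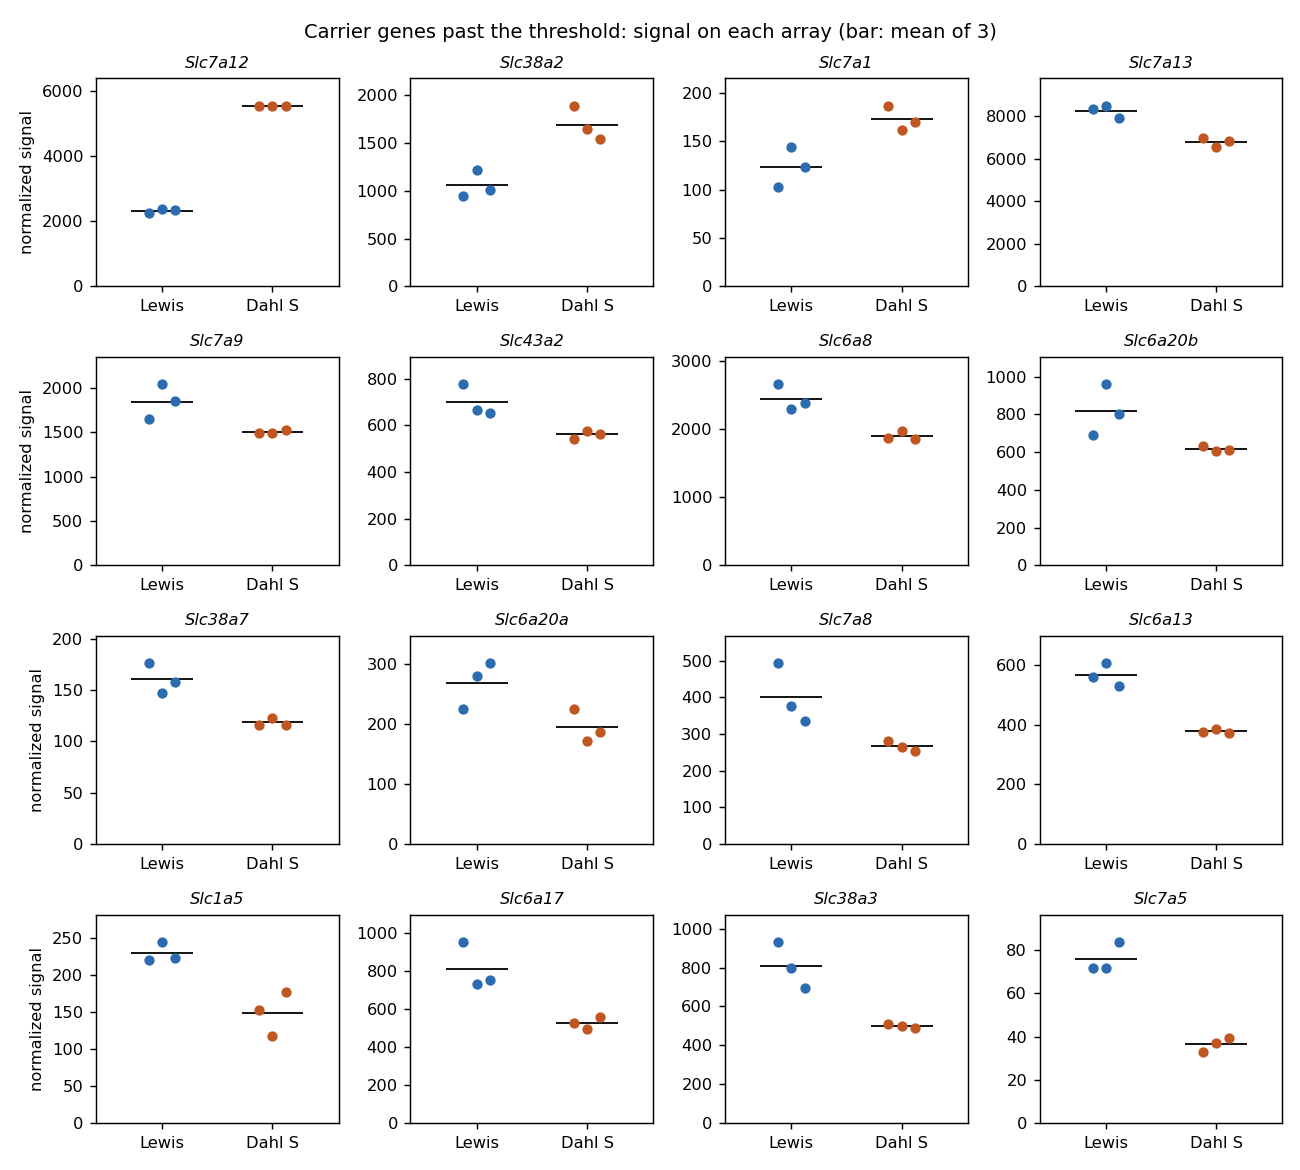
Normalized signal (linear scale, y axis from 0) of the 16 carrier genes past the threshold on each of the 6 arrays, with 1 point for each array and a bar for the mean of the 3 arrays of a strain. Slc7a12, Slc38a2 and Slc7a1 are higher on every Dahl S array, and Slc6a20a is the gene whose strains touch, at 225 on Lewis array 1 and on Dahl S array 1.

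Brush border carriers of the proximal tubule were measured through 7 tested genes, of which 4 were lower in Dahl S and 3 did not pass, with a median of -0.28. The cystine carrier of the brush border is built from the heavy chain Slc3a1 and the light chain Slc7a9; in humans, mutations in either gene cause cystinuria. Slc7a9 had normalized signals of 1650, 2040 and 1850 in Lewis and 1490, 1490 and 1530 in Dahl S. All Dahl S arrays lay below all Lewis arrays, a 1.22-fold difference (log2 difference -0.29, SE 0.08, adjusted p = 0.025). The call was lost without any 1 array except Lewis array 1, with differences of -0.30 to -0.21 and adjusted p values of 0.052 to 0.092.

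Slc7a13 (AGT1), which carries aspartate, glutamate and cystine and also pairs with Slc3a1 in the last segment of the proximal tubule, gave 8370, 8510 and 7930 in Lewis and 6970, 6550 and 6840 in Dahl S. It was lower in Dahl S on every array, by 1.22-fold (log2 difference -0.28, SE 0.05, adjusted p = 0.0018). Scaled to a common median in place of quantile normalization, the arrays gave -0.55 (adjusted p = 0.0014).

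Slc3a1 was among the brightest probe sets of the array. It stood at rank 6 on each of the 3 Dahl S arrays and at ranks 12, 7 and 7 on Lewis arrays 1, 2 and 3, so that its normalized signal was 11300 on every Dahl S array and 9850, 10900 and 10900 in Lewis. After quantile normalization it differed by 0.10 (SE 0.05, adjusted p = 0.18), but by -0.35 (adjusted p = 0.013) when arrays were scaled to a common median. Its direction thus depended on the scaling, and no direction is given for it.

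The imino acid carrier Slc6a20a and its relative Slc6a20b were both lower in Dahl S. They are neighbours on chromosome 8 with 0 protein-coding genes between them. These genes are close relatives, and whether their probe sets bind RNA of each other was not tested. Slc6a20b gave 692, 959 and 801 in Lewis and 631, 606 and 610 in Dahl S, without overlap (log2 difference -0.39, SE 0.11, adjusted p = 0.025). Slc6a20a gave 225, 280 and 301 in Lewis and 225, 172 and 187 in Dahl S, where the lowest Lewis array and the highest Dahl S array met (-0.43, SE 0.13, adjusted p = 0.037). A second probe set of Slc6a20a differed by -0.49 (adjusted p = 0.011). The call of Slc6a20a ended when array 2 or 3 of either strain was left out, with differences of -0.41 to -0.35. That of Slc6a20b was lost when Lewis array 2 or any 1 Dahl S array was left out, with differences of -0.41 to -0.26, and when arrays were scaled to one median (-0.39, adjusted p = 0.055).

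The remaining brush border carriers did not pass. Slc6a18 (B0AT3), a carrier of glycine and other neutral amino acids, gave 1900, 2100 and 2000 in Lewis and 1770, 1950 and 1890 in Dahl S, with overlap between the strains (log2 difference -0.09, SE 0.07, adjusted p = 0.37). Slc1a1 (EAAT3), which takes up glutamate and aspartate, gave 1630, 1490 and 1400 in Lewis and 1370, 1250 and 1270 in Dahl S. Every Dahl S value of Slc1a1 was below every Lewis value, yet the difference did not pass (-0.21, SE 0.08, adjusted p = 0.079), nor did that of its second probe set (-0.20, adjusted p = 0.076). Without Lewis array 3 it passed, at -0.26 (adjusted p = 0.043), as did the mean of both probe sets (-0.20, adjusted p = 0.046).

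Slc7a1 and Slc7a6 were assigned to no membrane side. The 6 genes assigned to the basolateral membrane of the tubule were all tested. Of these, 4 were lower in Dahl S and 2 did not pass, with a median of -0.42. The largest fall was that of Slc38a3 (SNAT3), the sodium-dependent carrier that brings glutamine into the proximal tubule cell as fuel for ammonia production. Its normalized signal was 931, 799 and 694 in Lewis and 507, 498 and 490 in Dahl S. The Dahl S arrays were close to each other and all below the Lewis arrays, which were spread (808 ± 119 in Lewis and 498 ± 8.2 in Dahl S, SD, n = 3 each). The difference was 1.59-fold, with Lewis higher (log2 difference -0.67, SE 0.10, adjusted p = 6.7e-04), and the call held without any 1 array, at -0.77 to -0.57.

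Slc6a13 (GAT2), a carrier of GABA and taurine in the basolateral membrane, gave 560, 605 and 529 in Lewis and 375, 386 and 373 in Dahl S. The strains were well apart, and the difference was 1.47-fold (log2 difference -0.56, SE 0.08, adjusted p = 6.6e-04), with a call that held without any 1 array. Slc7a8 (LAT2), the light chain that exchanges large and small neutral amino acids, gave 493, 376 and 335 in Lewis and 282, 266 and 254 in Dahl S. Its strains did not overlap, although Lewis array 1 stood high (-0.54, SE 0.13, adjusted p = 0.011; -0.51 with adjusted p = 0.054 without Dahl S array 3).

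Slc43a2 (LAT4), which lets large neutral amino acids leave the cell, gave 776, 667 and 653 in Lewis and 542, 578 and 565 in Dahl S, without overlap (log2 difference -0.30, SE 0.09, adjusted p = 0.032). Its probe sets disagreed: the other one differed by 0.18 (adjusted p = 0.40), and their mean by -0.06 (adjusted p = 0.72). Leaving out Lewis array 1 or any 1 Dahl S array also ended the call, with differences of -0.33 to -0.23.

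The light chain Slc7a7 (y+LAT1), which releases cationic amino acids at the basolateral side and is mutated in human lysinuric protein intolerance, gave 1820, 2160 and 2020 in Lewis and 1810, 1670 and 1800 in Dahl S. Lewis array 1 was only just above the Dahl S arrays, and the difference did not pass (log2 difference -0.18, SE 0.07, adjusted p = 0.13; -0.24 with adjusted p = 0.018 without Lewis array 1). The heavy chain Slc3a2 gave 1660, 1830 and 1860 in Lewis and 1700, 1610 and 1640 in Dahl S, with overlap (-0.11, SE 0.07, adjusted p = 0.32). Of the light chains known to bind Slc3a2, Slc7a8 was thus lower, and Slc7a6 and Slc7a7 did not pass. Slc7a5 was lower too, but it was tested through its Lewis arrays alone. Whether a light chain changed more than its heavy chain was not tested.

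Slc7a5 (LAT1), the carrier of large neutral amino acids in growing cells and in the blood-brain barrier, was lower in Dahl S. It was dim, with 71.7, 71.7 and 83.7 in Lewis and 32.8, 36.8 and 39.5 in Dahl S, where it was below the filter on every array. The strains did not overlap, and the log2 difference was -0.81 (SE 0.14, adjusted p = 0.0021), a 1.75-fold change. Its size depended on the pseudocount of 16 added before the logarithm: it was -1.04 with a pseudocount of 1 and -0.48 with one of 64, where Slc38a3 (-0.62), Slc6a17 (-0.56) and Slc6a13 (-0.51) differed more. Slc7a5 passed the filter through its Lewis arrays alone, so its adjusted p and its call are no independent support for a difference. Without any 1 Dahl S array the call stayed, at -0.84 to -0.75, and the gene was not tested without any 1 Lewis array. Slc1a5 (ASCT2), a sodium-dependent exchanger of glutamine and other neutral amino acids, gave 220, 244 and 222 in Lewis and 152, 117 and 177 in Dahl S. It was lower on every Dahl S array, by 1.5-fold (-0.59, SE 0.13, adjusted p = 0.0092), and the call held without any 1 array, at -0.71 to -0.44. Its relative Slc1a4 (ASCT1), which carries serine, alanine and cysteine, gave 98.3, 116 and 97.5 in Lewis and 116, 123 and 109 in Dahl S, with overlap (0.14, SE 0.12, adjusted p = 0.46).

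The Slc6 family had 5 of 7 tested genes lower in Dahl S and 0 higher by limma (0 higher also at an unadjusted p under 0.05), with a median of -0.39. Beside Slc6a13, Slc6a20a and Slc6a20b, these were the creatine carrier Slc6a8 and Slc6a17. Slc6a8 gave 2660, 2300 and 2380 in Lewis and 1870, 1970 and 1850 in Dahl S, without overlap (log2 difference -0.36, SE 0.07, adjusted p = 0.0037). Its second probe set, with 1590, 1430 and 1230 in Lewis and 883, 1040 and 907 in Dahl S, gave -0.58 (adjusted p = 0.0016). Leaving out array 2 of either strain, or Dahl S array 3, brought the number of lower Slc6 genes to 3.

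Slc6a17 (NTT4) encodes a carrier of neutral amino acids known from synaptic vesicles of neurons. The probe set that stands for it gave 952, 730 and 752 in Lewis and 524, 492 and 558 in Dahl S, without overlap (log2 difference -0.61, SE 0.10, adjusted p = 0.0018). Of its 5 probe sets, 3 were too dim to be tested, and the other tested one gave -0.38 (adjusted p = 0.050). Both tested probe sets are annotated to the same source sequence, so the second is no separate support. The 3 dim ones come from other source sequences and had deposited signals of at most 30.4. Of the 6 nerve markers 1 was measured above the filter, Uchl1, which differed by 0.09 (adjusted p = 0.71).

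The Slc7 family had 4 of 8 tested genes lower and 2 higher in Dahl S, with a median of -0.23. With a filter on the mean, where Slc7a5 was not tested, 3 of 7 were lower. Leaving out array 3 of either strain, or Lewis array 2, brought the lower genes to 2, of 7 tested in the settings without a Lewis array, where Slc7a5 was not tested. Leaving out Lewis array 1 or 3 or any 1 Dahl S array left Slc7a12 as the only higher one. The Slc38 family had 2 of 6 lower and 1 higher, with a median of -0.20. Its other lower gene, Slc38a7 (SNAT7), which exports glutamine and asparagine from lysosomes, gave 176, 147 and 158 in Lewis and 116, 123 and 116 in Dahl S, without overlap (log2 difference -0.39, SE 0.11, adjusted p = 0.028). Leaving out Lewis array 1 or any 1 Dahl S array ended the call of Slc38a7, at -0.41 to -0.33, so that Slc38a3 was then the only lower member of the family. The 5 tested carriers not described by array were Slc6a9, Slc7a6, Slc38a1, Slc38a6 and Slc38a10, and their log2 differences ran from -0.29 to -0.05, none past the threshold (lowest adjusted p = 0.15 by limma).

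The 23 carriers that were too dim to be tested had deposited signals between 0.2 and 76.7 over all their probe sets. Among them were all 3 measured Slc36 genes, proton-coupled carriers of small amino acids, with signals of at most 33.8. Slc36a1 gave 9.1, 14.5 and 14.4 in Lewis and 16, 21.6 and 12.9 in Dahl S before normalization, Slc7a10 (asc-1) at most 28.1, and Slc43a1 (LAT3) at most 57. The neurotransmitter carriers Slc6a2, Slc6a3, Slc6a4, Slc6a5 and Slc6a11 were in this group too, as were the glutamate carriers of glia, Slc1a2 and Slc1a3. Their levels in the kidney could not be compared between strains at this signal. Slc6a19, the main neutral amino acid carrier of the brush border, is not analysed here.

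Within strains the carriers varied more among the Lewis arrays than among the Dahl S arrays. With 1 array for each rat, variation of rats and of arrays cannot be told apart. The Lewis arrays also differed more in level, with trimmed means of 119, 230 and 175, against 225, 250 and 205 in Dahl S. The SD over 3 arrays was larger in Lewis for 23 of the 27 carriers, with a median of 0.119 on the log2 scale against 0.063 in Dahl S. The same held for 71.1% of all genes tested, with medians of 0.13 and 0.081. Lewis array 1 was the highest Lewis array for 10 carriers and the lowest for 13, as in Slc7a8 and Slc38a3 on one side and Slc7a9 and Slc6a20b on the other. Lewis array 2 was the highest for 14 and the lowest for 6, and Lewis array 3 was the highest for 3 and the lowest for 8.

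**Figure D3:**
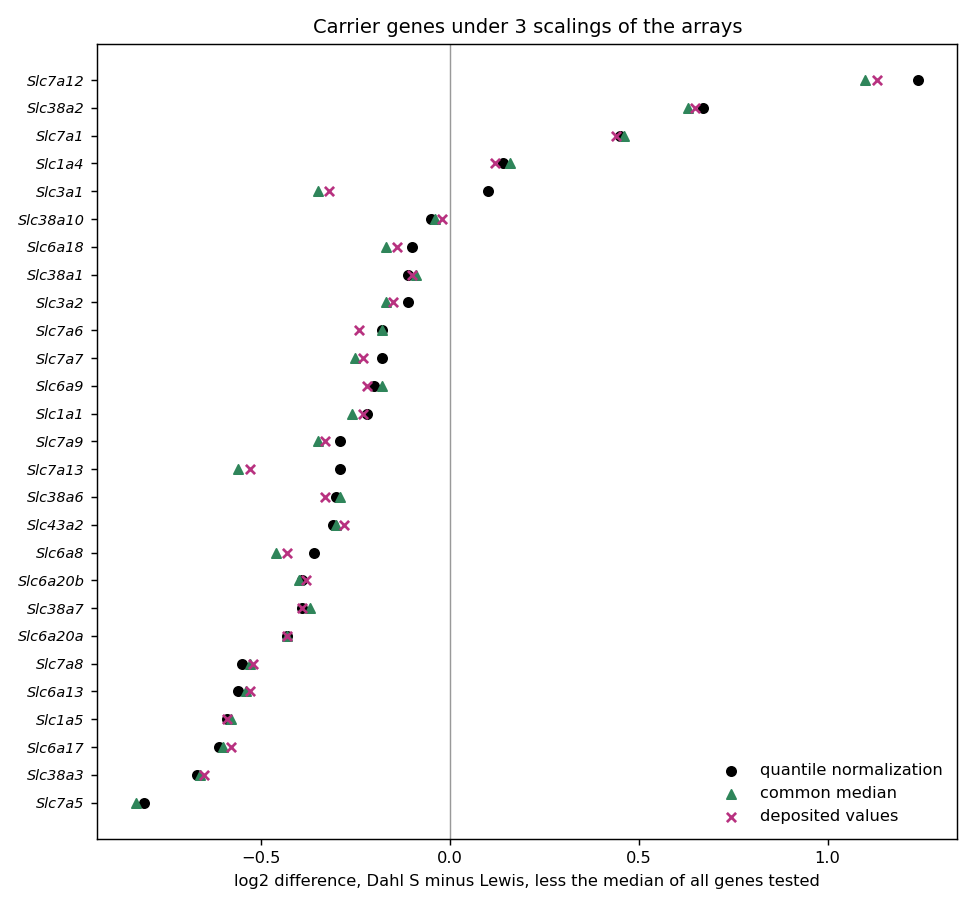
Log2 difference (Dahl S minus Lewis) of each tested carrier, less the median difference of all genes tested, with quantile normalization (circles), scaling to a common median (triangles) and in the deposited values (crosses). Slc3a1 moves from 0.10 to -0.35 and Slc7a13 from -0.29 to -0.56 between quantile normalization and a common median, and Slc7a5 has no cross because it did not pass the filter in the deposited values.

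More proximal tubule markers were lower than higher in Dahl S. Of 17 proximal tubule markers that are no amino acid carriers, 9 were lower in Dahl S and 0 higher by limma (10 lower and 0 higher at an unadjusted p under 0.05), with a median of -0.17. The share lower was 52.9%, beside 7.59% of all genes. Their summed normalized signal was 72100 to 72900 in Lewis and 62300 to 63200 in Dahl S. The range among them was wide, from -0.84 for the lactate carrier Slc5a12 and -0.68 for the organic anion carrier Slc22a6 to -0.07 for Lrp2 (megalin; adjusted p = 0.36) and 0.13 for Cubn (cubilin; adjusted p = 0.20), both named after their values were seen. Of 4 markers of the late (S3) proximal tubule, the segment named for Slc7a13, 1 was lower and 3 did not pass, with a median of -0.13 and a summed signal that overlapped between the strains, at 9670 to 10700 in Lewis and 9070 to 10300 in Dahl S. The part of the proximal tubule markers in the result for the carriers was not tested. In whole kidneys, fewer cells of a type and less RNA in each cell cannot be told apart.

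Markers of leukocytes and of tubular injury were mostly higher in Dahl S. Of 11 leukocyte markers 10 were higher in Dahl S, with a median of 0.54 and a summed signal of 1950 to 2130 in Lewis and 3010 to 3040 in Dahl S, and none was at 0 on any array. Of 7 injury markers 6 were higher, with a median of 1.33 and a summed signal of 6260 to 7240 in Lewis and 13300 to 13500 in Dahl S. The thick ascending limb markers had a median of 0.04, and their summed signal overlapped between the strains, at 14900 to 15300 in Lewis and 14900 to 15400 in Dahl S. Distal tubule and collecting duct markers had a median of -0.16, with 2 of 7 lower. Of 4 podocyte markers 2 were lower, with a median of -0.23, and of 4 endothelial markers 2 were lower, with a median of -0.29. Of 4 erythrocyte markers 3 were higher, with a median of 0.45. Over all genes tested, 9.04% were higher and 7.59% lower. The part of these cell types in the values of the carriers was not tested.

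**Figure D4:**
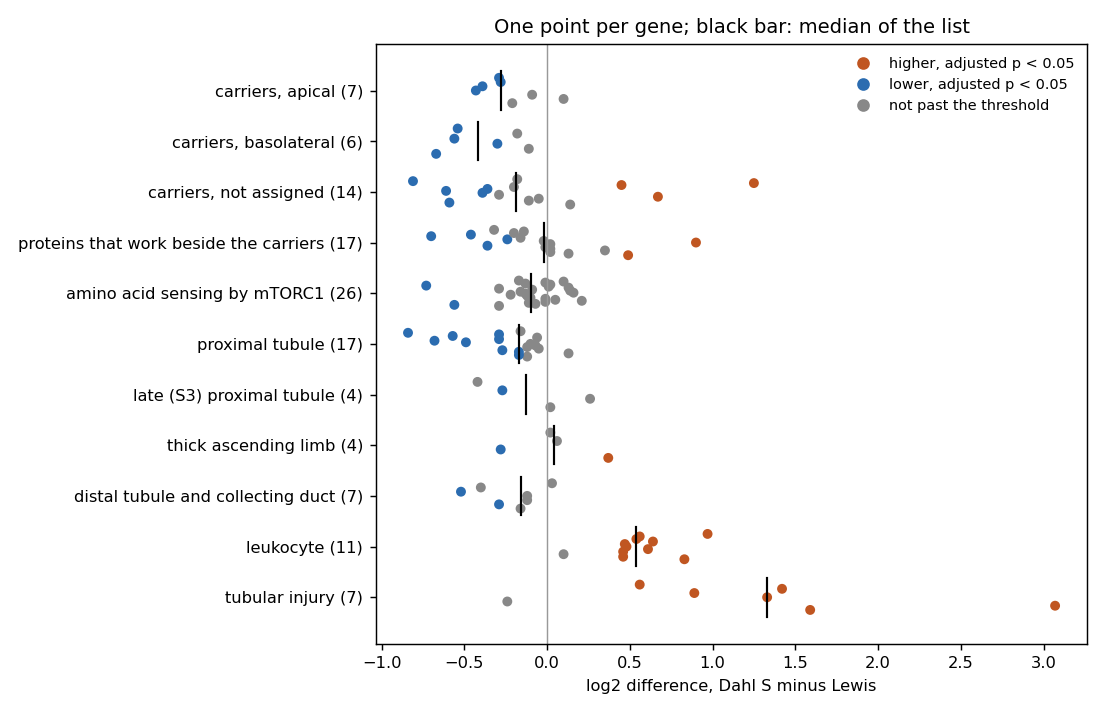
Log2 difference (Dahl S minus Lewis, x axis) of the tested carriers by membrane side and of genes of other lists, with 1 point for each gene, a black bar for the median of the list and the number of genes in parentheses; blue and orange mark genes lower and higher at an adjusted p under 0.05. Medians of the apical (-0.28) and basolateral (-0.42) carriers lie to the left of 0, beside the proximal tubule markers (-0.17), and those of the leukocyte (0.54) and injury (1.33) markers to the right.

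Proteins that work beside the carriers went both ways. Of 17 measured, 2 (11.8%) were higher and 4 (23.5%) lower, beside 9.04% and 7.59% of all genes. The other 11 did not pass, and the median was -0.02. The higher ones were the brush border peptidases Mme (neprilysin, log2 difference 0.90, SE 0.07) and Anpep (aminopeptidase N, 0.49, SE 0.07), which split peptides outside the cell. The lower ones were the kinase gene Sgk1 (-0.70, SE 0.06), the peptidase Enpep (-0.36, SE 0.06) and, named after their values were seen, the peptide carrier Slc15a1 (-0.46, SE 0.14, adjusted p = 0.038) and the scaffold gene Nherf1 (-0.24, SE 0.07, adjusted p = 0.031). Cltrn (collectrin), which brings Slc6 carriers to the brush border in the mouse kidney, differed by 0.02 (SE 0.06, adjusted p = 0.83), and Slc16a10 (TAT1), the basolateral carrier of aromatic amino acids, by -0.14 (SE 0.14, adjusted p = 0.52); both were named after their values were seen.

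Genes of amino acid sensing by mTORC1, the kinase complex that reads amino acid supply at the lysosome, mostly did not pass. Of 26 measured, 2 were lower (7.69%, beside 7.59% of all genes) and 0 higher by limma (4 lower and 1 higher at an unadjusted p under 0.05), with a median of -0.09. The lower genes were Rragd (-0.73, SE 0.10, adjusted p = 3.1e-04), which encodes the Rag GTPase RagD, and Castor1 (-0.56, SE 0.09, adjusted p = 9.9e-04), which encodes an arginine sensor.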

How the data were processed

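Whole-kidney RNA was measured on 6 arrays, 1 for each rat; groups and replicate numbers come from the sample titles. The deposited intensity values, 1 linear signal for each probe set, were made by the authors with GeneChip Operating Software, version 1.4, per the labels; a scaling target is not given in the sources used here. Signals were taken as log2(signal + 16) and quantile normalized, because the arrays were known to differ in mean level. The members, gene lists, tests and names were all chosen with earlier results of these data known.

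A probe set was tested if its value on 3 or more of the 6 arrays was above the median of all values, leaving out 57 control probe sets, which left 15778. Dahl S was compared with Lewis with limma 3.58.1 in R 4.3.3 (lmFit, eBayes with a variance trend, two-sided, Benjamini-Hochberg over all probe sets tested, threshold 0.05). All adjusted p values are from this fit unless an alternative is named, and n = 3 arrays in each strain. The probe set with the highest mean stands for a gene. Fold changes are on the log2(signal + 16) scale, which understates those of dim genes. Quantile normalization hides a shift shared by most genes and sets values at the top of the range by rank.

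Gene names come from the platform annotation, with 20764 of 21268 annotated probe sets matched to RefSeq (GRCr8); 20826 probe sets had 1 symbol and 436 several, and none was named from several. Membrane sides and substrates are textbook knowledge. Named with values by array were, by rule, up to 6 genes of each family past the threshold and a fixed set of kidney carriers; Slc6a17 and Slc38a7 are outside that set. From other lists up to 4 genes past the threshold were named. Same-numbered rats of the strains did not deviate together (correlations of deviations -0.05, -0.10 and 0.11), so the replicate number was not used as a block. The steps were tested on simulated data. Precision is limited by the number of arrays: with 3 in each strain, a two-sided exact permutation p of a single gene is at least 0.1.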

Additional observations from a re-analysis of the deposited data

How the results depend on the processing

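Quantile normalization gave 13 carriers lower and 3 higher in Dahl S. Scaling to a common median, pseudocounts of 1 and 64, and averaging the probe sets of a gene gave these same counts, and so did the replicate block, which could not be based on a pairing and gave 1290 probe sets higher and 1195 lower in all, against 1342 and 1219. The genes behind the counts were not all the same. A common median lost Slc6a20b (limma adjusted p = 0.055) and gained Slc3a1 (-0.35, adjusted p = 0.013). Averaging lost Slc43a2 (adjusted p = 0.72) and gained Slc1a1 (-0.20, adjusted p = 0.046). Without a variance trend 9 carriers were lower and 3 higher, beside 6.36% and 7.87% of all genes. With the stricter filter, which left 17 carriers, 9 were lower and 2 higher, beside 9.52% and 10.5% of all genes. A filter on the mean, chosen after seeing the data, gave 12 and 3, beside 7.45% and 8.8%. Without a filter, where 50 carriers were tested, 8 were lower and 2 higher, beside 3.78% and 4.8%. The deposited values gave 0 lower and 2 higher, with 666 probe sets higher and 47 lower in all. The stricter filter, which tests fewer probe sets, left 839 higher and 792 lower. Leaving out 1 array gave 7 to 11 carriers lower and 2 or 3 higher, with 660 to 1433 probe sets higher and 714 to 1239 lower in all; such a fit has fewer samples. Single carriers turned direction in the deposited values, which hold the shift of 0.41 shared by all genes: Slc1a1 to 0.18, Slc38a7 to 0.03, Slc3a2 to 0.27, Slc43a2 to 0.13, Slc6a18 to 0.27, Slc6a20b to 0.04, Slc7a7 to 0.19, Slc7a9 to 0.09, Slc6a9 to 0.20, Slc7a6 to 0.17, Slc38a1 to 0.31, Slc38a6 to 0.08 and Slc38a10 to 0.39, each with an adjusted p of 0.41 or more. Slc3a1 turned to -0.35 with scaling to a common median; the cause was not tested. No measure of signal over background was used, and the dim carriers were left untested.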
